A study of Mus musculus with 238 samples.

Results

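The cytochrome P450 genes were examined in liver and in 15 brain regions of aged mice. A gene was taken when its symbol began with Cyp followed by a digit, and Cyp51, the P450 of cholesterol synthesis, was left out. This gave 100 of the 21076 gene rows of the count table. Per GENCODE M21 on GRCm38, 99 of them were protein-coding and 1, Cyp4x1os, was an antisense transcript. Chromosome 4 held 20 members, chromosome 19 held 18 and chromosome 7 held 15. There was 1 member without a count in any library.

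P450 enzymes carry a haem group and insert an oxygen atom into a lipophilic substrate, with electrons passed on from NADPH by the reductase POR or, in mitochondria, by ferredoxin. In liver, families 1, 2 and 3 are known for the clearance of drugs and toxins, family 4 for the omega-hydroxylation of fatty acids, and Cyp7a1, Cyp8b1, Cyp27a1 and Cyp7b1 for the conversion of cholesterol into bile acids. In brain, Cyp46a1 makes 24-hydroxycholesterol, the form in which neurons export cholesterol, while Cyp26b1 breaks down retinoic acid and Cyp19a1 makes oestradiol. By known role, 39 members were put in family 2 with xenobiotic or fatty acid substrates, 20 in family 4, 9 in family 3, 9 in the arachidonate-oxidising branches 2j and 2u, 6 in sterol and bile acid turnover, 6 in steroid hormone synthesis, 3 in retinoic acid breakdown, 3 in vitamin D turnover and 3 in family 1.

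RNA came from C57BL/6JN mice, 19 months old, and 238 libraries were counted. In the diet experiment, female mice had food freely available (AL, 4 mice) or were dietary restricted (aDR in the brain labels and DR in the liver labels, 5 mice), and the same 9 animals gave liver and brain. In the plasma experiment, male mice were injected behind the eye with plasma of young mice (YMP, 3 mice) or with saline (PBS, 4 mice), and gave brain. Sex and experiment cannot be told apart, so AL and PBS values are set side by side and not compared. Mice are named by their number in the labels. A few region groups lack a mouse: in the diet experiment corpus callosum had 4 aDR against 3 AL libraries, entorhinal cortex 5 against 3 and hypothalamus 4 against 4. In the plasma experiment there were 3 PBS libraries against 3 YMP for 5 regions (pons, visual cortex, hypothalamus, cerebellum, posterior hippocampus) and 3 against 2 for corpus callosum.

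The libraries held between 0.606 and 32.4 M counts each (M stands for mega; median 8.44 M), and the 9 from liver between 3.502 and 12.1 M. The lowest total belonged to the olfactory bulb of YMP mouse 73. In liver, 6 hepatocyte markers summed to between 81831 and 106100 CPM (reads of a gene per M reads counted in the library) and 4 neuron markers to at most 20.6 CPM. In brain, the hepatocyte markers averaged at most 1.31 CPM per mouse, so liver transcripts in brain libraries were near 0. The 8 markers of choroid plexus epithelium ranged from 152 to 15317 CPM among libraries labelled choroid plexus, and reached 19856 CPM in the SVZ (the label used for the subventricular zone). Liver libraries of DR mice 67 and 62 stood apart. Of the 65 members tested in liver, 27 (41.5%) had their highest or lowest value in mouse 67 and 28 (43.1%) in mouse 62, against 41.0% and 33.0% of all genes tested there. In bulk tissue, fewer cells of a type and less RNA per cell cannot be told apart. Members with near-identical copies (Cyp2a4 and Cyp2a5, the Cyp2c and Cyp2d clusters, Cyp3a41a and Cyp3a41b, Cyp4a12a and Cyp4a12b) are uncertain, since reads can be split between the copies. Cyp4x1os overlaps Cyp4x1 on the other strand and the libraries carry no strand, so reads in the overlap cannot be told apart.

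In liver, P450 transcripts were a sizeable part of the library. The members summed to 20383 ± 3591 CPM in AL mice (SD, n = 4), which is 2.04% of counts. Family 2 enzymes of xenobiotics made up 14706 CPM of it, family 3 made up 2514 CPM, the sterol and bile acid enzymes 964 CPM, family 4 844 CPM and family 1 688 CPM. A small number of genes carried the sum: 16.1% was Cyp2e1 alone, 38.7% was the top 5 and 68.9% the top 15. A threshold of 10 counts in each of the 9 liver libraries was met by 61 members.

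Cyp2e1, which oxidises ethanol, acetone and other small molecules, had 4887, 2840, 2425 and 2935 CPM in AL mice 63, 66, 68 and 69, so mouse 63 was above the other 3. On the scale of CPM per kb of exon, on which levels of different genes can be compared, it had 1516 CPM per kb, followed by Cyp2a4 with 884, Cyp2c69 with 505, Cyp2c29 with 452 and Cyp2c70 with 423 CPM per kb. In CPM, Cyp2a4 had 1536 ± 188 (SD, n = 4 AL mice), Cyp2c29 1384 ± 354, Cyp2c69 862 ± 124, Cyp2c70 839 ± 212 and Cyp2a5, the coumarin hydroxylase, 755 ± 189. Some of the abundant members were even between mice. Cyp2d10 had 611 ± 26.9 CPM, Cyp2a12 563 ± 66.2 CPM and Cyp2d26 714 ± 65.3 CPM, and Cyp1a2, the caffeine demethylase, 685 ± 121 CPM. Others were not. Cyp3a11, a main drug-oxidising enzyme of mouse liver, had 897, 217, 228 and 915 CPM in AL mice 63, 66, 68 and 69, so mice 63 and 69 were high and mice 66 and 68 low. Cyp2f2 had 598 ± 261 CPM, Cyp3a44 589 ± 176 CPM, Cyp2c37 587 ± 185 CPM and Cyp2c68 494 ± 95.3 CPM. Among the bile acid enzymes, Cyp7a1, which sets the rate of the classical route, had 326 ± 57.1 CPM, Cyp8b1, the 12-alpha-hydroxylase, 190 ± 53.5 CPM and Cyp27a1, the mitochondrial sterol 27-hydroxylase, 392 ± 17.3 CPM.

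In brain the sum was smaller and rested on other genes. Averaged over the 15 region means of AL mice, the members summed to 536 CPM, of which Cyp46a1 took 41.7%, and without it 312 CPM remained. The regional sum in AL mice was lowest in cerebellum, 396 ± 6.72 CPM (SD, n = 4), and highest in thalamus, 667 ± 36.7 CPM (SD, n = 4). The same 2 regions stood at the ends in PBS mice, with 390 ± 9.97 CPM (SD, n = 3) and 644 ± 32.04 CPM (SD, n = 4). The 12 most abundant members, 87.5% of the brain sum, were Cyp46a1 at 223 CPM, Cyp2j9 at 43.6, Cyp2d22 at 37.0, Cyp2j6 at 29.2, Cyp20a1 at 23.0, Cyp4x1 at 23.0, Cyp2u1 at 18.7, Cyp4f15 at 17.4, Cyp27a1 at 16.2, Cyp4f13 at 14.4, Cyp7b1 at 12.2 and Cyp4v3 at 10.8 CPM. Cyp2j9, Cyp2j6 and Cyp2u1 oxidise arachidonate and related fatty acids, and the substrate of Cyp20a1 is not established. These values are not scaled by length. Per kb of exon, Cyp46a1 had 67.9 CPM per kb in brain, Cyp2j9 13.1 and Cyp20a1 10.1, against 1516 CPM per kb for Cyp2e1 in liver.

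Of the 100 members, 6 had at least 10 counts in each brain library and 25 in most of them, and 18 of these 25 also met the threshold in each liver library. The 7 found in most brain libraries and not in each liver library were Cyp2j12, Cyp4x1, Cyp4x1os, Cyp2s1, Cyp11a1, Cyp4f17 and Cyp1b1. At most 3 counts, the floor used here, were found in each brain library for 42 members and in each liver library for 29.

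**Figure D1:**
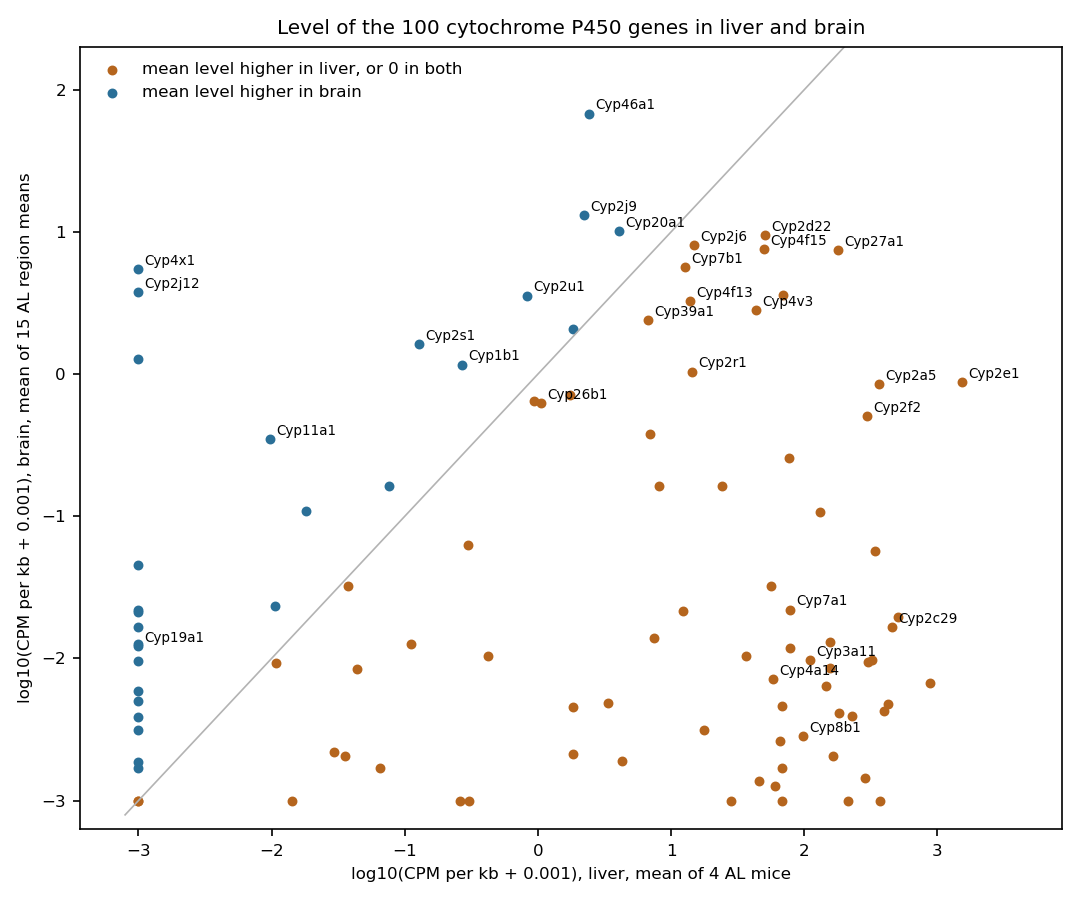
Level of each of the 100 members in brain (y axis, mean of the 15 region means of AL mice) against liver (x axis, mean of 4 AL mice), both as log10 of CPM per kb of exon plus 0.001. Points are genes, colour gives the tissue with the higher mean and the line marks equal levels. Cyp46a1 lies highest on the brain axis at 67.9 CPM per kb and Cyp2e1 farthest right at 1516 CPM per kb.

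Liver and brain were compared within each of the 9 mice of the diet experiment with limma, on log2 CPM scaled by TMM. All 72 members tested differed at an adjusted p under 0.05, where 87.3% of all genes did. Of these, 61 (84.7%) were higher in liver, against 37.1% of all genes, and 11 (15.3%) were higher in brain, against 50.2% of all genes. The 11 were Cyp46a1, Cyp2j9, Cyp20a1, Cyp4x1, Cyp2u1, Cyp2s1, Cyp2j12, Cyp1b1, Cyp4x1os, Cyp11a1 and Cyp4a12b. Cyp46a1 had 223 CPM in AL brain and 7.88, 11.6, 3.33 and 8.99 CPM in the 4 AL livers, a ratio of means of 28.1, and the fitted liver minus brain difference was -3.35 (log2, SE 0.24, adjusted p = 3.58e-07 with limma). Cyp4x1 had no count in any AL liver and was at least 61.7-fold higher in brain, and Cyp2j12 at least 19.8-fold higher, both against a floor of 3 counts per library. Cyp2s1 was 12.7-fold, Cyp2j9 5.89-fold and Cyp1b1, an oxidase of oestrogens and polycyclic hydrocarbons, 4.32-fold higher in mean brain CPM than in mean liver CPM. In the other direction, Cyp2e1 was 1739-fold higher in liver, 3272 against 1.88 CPM (fitted log2 difference 12.44, SE 0.12). Cyp27a1 was 24.1-fold, Cyp2d22 5.40-fold and Cyp7b1 2.27-fold higher in liver, and these 3 were also among the 12 most abundant members in brain. All these folds are ratios of AL mean CPM on plain library totals, and the fit used TMM and all 9 mice, so the 2 scales differ. The fitted log2 liver minus brain differences were -1.22 for Cyp2j9, -0.85 for Cyp1b1, 3.58 for Cyp2d22 and 5.94 for Cyp27a1.

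The scale of this comparison depends on the normalisation. The median over all genes of the liver minus brain difference was -0.30 with TMM, -0.23 with the size factors of DESeq2 (RLE) and -1.10 with plain library totals, and with the plain totals 21.8% of all genes were higher in liver and 68.7% higher in brain. The members kept their call and direction in each of the 3 scalings except Cyp20a1 and Cyp4f16. Cyp20a1 differed by -0.26 with TMM (adjusted p = 0.0307), -0.18 with RLE (adjusted p = 0.106) and -1.20 with plain totals (limma). Cyp4f16, a family 4 enzyme, differed by 0.63 with TMM and by -0.29 with plain totals, where it was no longer called (adjusted p = 0.1004 with limma).

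The RefSeq promoter table (GRCm38.p6, 250 bases before to 50 after each RefSeq start) held 77 of the 100 members. For 7 members with more than 1 window, the first by coordinate was kept. Some windows lie away from the GENCODE start: that of Cyp2c39 begins at 39347096 and the GENCODE gene at 39510862. The 6 printed here, 5′ to 3′ with each CG pair in capitals, are chosen examples and do not stand for their groups. Cyp46a1 and Cyp20a1 have the most CG pairs of the 8 matched members higher in brain. Those 8 ranged from 4 to 31 CG pairs, and the 48 matched members higher in liver from 0 to 26. Cyp46a1 (chr12:108334066-108334365, plus strand, 31 CG pairs, 70.3% G and C) and Cyp20a1 (chr1:60343050-60343349, plus strand, 20 CG pairs) were higher in brain. With RLE scaling Cyp20a1 was no longer called. Cyp2r1 (chr7:114562923-114563222, minus strand, 22 CG pairs) was 13.8-fold higher in liver, yet was present in most brain libraries. Cyp2e1 (chr7:140763569-140763868, plus strand, 4 CG pairs), Cyp2a5 (chr7:26835089-26835388, plus strand, 2 CG pairs) and Cyp1a2 (chr9:57683606-57683905, minus strand, 3 CG pairs) are among the 15 most abundant members in liver.
Cyp46a1: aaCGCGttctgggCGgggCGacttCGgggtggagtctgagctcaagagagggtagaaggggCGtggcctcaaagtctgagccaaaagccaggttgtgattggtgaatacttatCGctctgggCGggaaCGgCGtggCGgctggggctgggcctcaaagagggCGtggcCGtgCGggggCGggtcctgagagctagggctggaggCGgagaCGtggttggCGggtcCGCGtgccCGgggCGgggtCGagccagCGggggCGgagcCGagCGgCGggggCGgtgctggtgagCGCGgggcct
Cyp20a1: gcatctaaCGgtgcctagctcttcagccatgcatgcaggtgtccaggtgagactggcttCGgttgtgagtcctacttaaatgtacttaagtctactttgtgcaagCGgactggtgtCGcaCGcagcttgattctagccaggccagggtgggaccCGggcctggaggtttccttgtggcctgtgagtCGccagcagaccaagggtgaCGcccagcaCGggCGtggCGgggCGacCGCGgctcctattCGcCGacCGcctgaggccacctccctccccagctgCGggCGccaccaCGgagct
Cyp2r1: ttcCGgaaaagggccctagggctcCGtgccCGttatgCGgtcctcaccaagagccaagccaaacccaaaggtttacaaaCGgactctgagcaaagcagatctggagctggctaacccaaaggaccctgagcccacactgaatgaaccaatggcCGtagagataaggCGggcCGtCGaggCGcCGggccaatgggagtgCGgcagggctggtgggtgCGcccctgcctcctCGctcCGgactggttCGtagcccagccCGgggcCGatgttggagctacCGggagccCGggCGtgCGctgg
Cyp2e1: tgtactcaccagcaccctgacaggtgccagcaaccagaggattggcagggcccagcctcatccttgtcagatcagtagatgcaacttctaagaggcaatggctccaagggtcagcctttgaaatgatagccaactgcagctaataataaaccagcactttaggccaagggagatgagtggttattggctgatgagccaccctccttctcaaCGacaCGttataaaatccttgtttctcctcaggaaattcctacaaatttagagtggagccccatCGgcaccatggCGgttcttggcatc
Cyp2a5: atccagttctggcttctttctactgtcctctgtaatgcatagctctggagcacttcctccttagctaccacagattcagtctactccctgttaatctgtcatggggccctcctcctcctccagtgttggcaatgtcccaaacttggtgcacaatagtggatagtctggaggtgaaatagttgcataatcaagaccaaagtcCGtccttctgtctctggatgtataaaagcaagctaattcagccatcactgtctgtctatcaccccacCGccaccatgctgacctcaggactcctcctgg
Cyp1a2: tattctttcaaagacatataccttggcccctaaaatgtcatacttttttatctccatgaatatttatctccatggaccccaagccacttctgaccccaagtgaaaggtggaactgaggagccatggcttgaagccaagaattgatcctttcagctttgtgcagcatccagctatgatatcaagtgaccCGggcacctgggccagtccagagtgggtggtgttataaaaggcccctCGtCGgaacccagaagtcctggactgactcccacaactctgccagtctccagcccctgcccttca

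Over the windows, the 48 matched members higher in liver had a median of 2 CG pairs, the 8 matched members higher in brain a median of 14, and all 27025 promoters a median of 7. The letters TATAAA on either strand were present in 27 of the 48 (56.25%), in 0 of the 8 and in 14.1% of all promoters. The letters CCAAT on either strand were present in 23 of the 48 (47.9%), in 5 of the 8 (62.5%) and in 37.8% of all promoters; matches of the 2 motifs can share bases only at their ends. Many of the liver members are copies of each other, so their windows are not independent. These are descriptions of letters in a window, with no test, and a match is not a shown binding site.

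Between brain regions, levels were compared separately in AL and in PBS mice with the quasi-likelihood test of edgeR. Of the members tested, 32 of 32 differed between regions in AL mice, against 98.1% of all genes, and 34 of 34 in PBS mice, against 96.1%. Each region was then set against the mean of the log2 levels of the other 14. A difference was counted when it was called with the same sign in both groups of control mice. This gave 118 higher calls among 480 (24.6%, against 19.3% over all genes) and 81 lower calls (16.9%, against 15.4%). The olfactory bulb had 16 of 32 members higher, where 28.8% of all genes were, the medulla 15 (46.9%, against 26.5%), the pons 11 (34.4%, against 19.2%) and the cerebellum 11 (34.4%, against 27.4%). The cortical regions had most of their calls downwards: visual cortex had 12 lower (37.5%, against 14.5%), motor cortex 10 (31.2%, against 2434 of 15218 genes) and entorhinal cortex 9 (28.1%, against 12.2%).

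**Figure D2:**
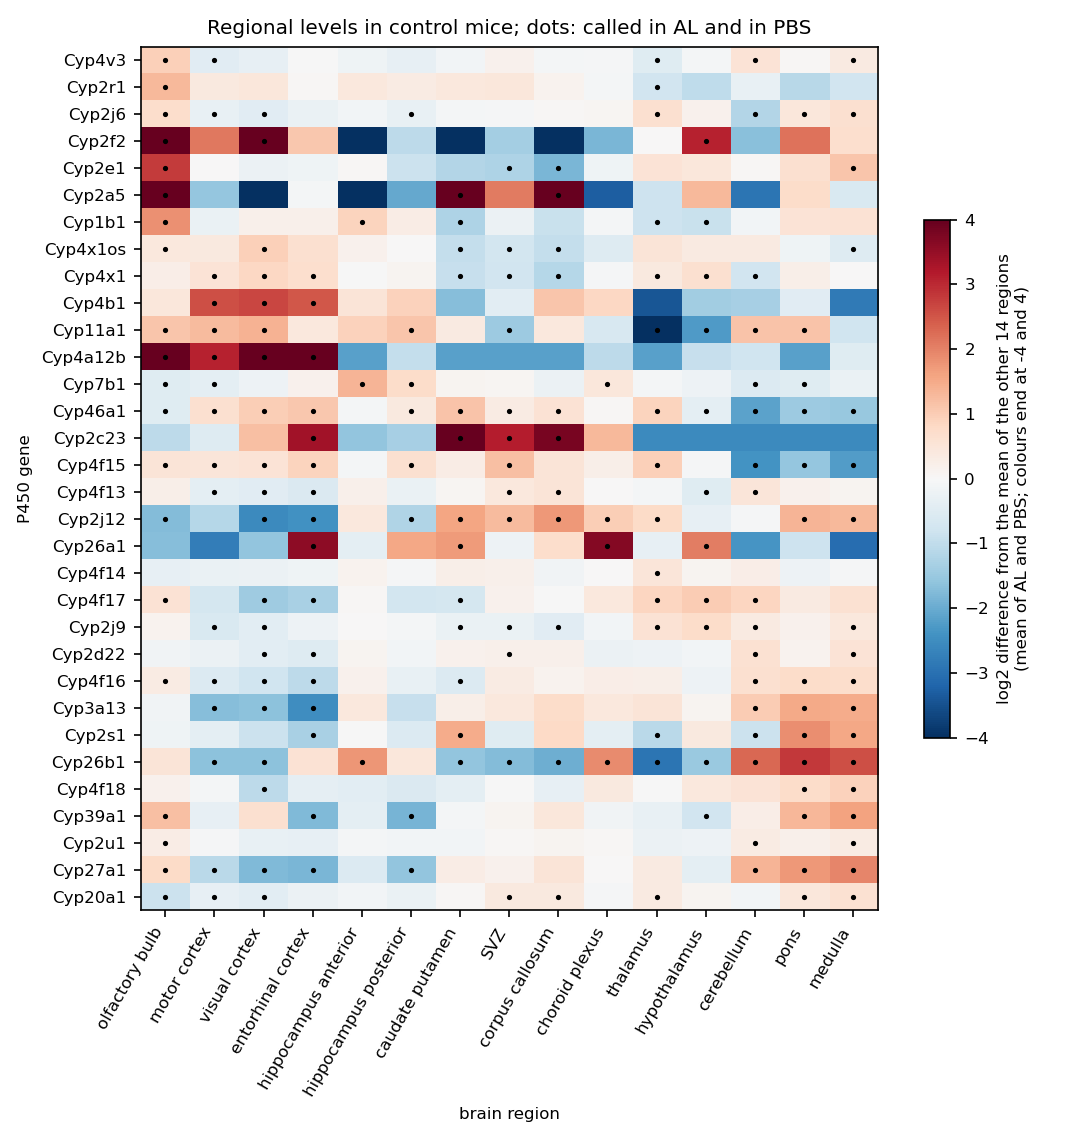
Log2 difference of each of 32 members (rows) in each of the 15 brain regions (columns) from the mean of the other 14, averaged over AL and PBS mice. Dots mark differences called with the same sign in both groups, and colours end at -4 and 4. Olfactory bulb has 16 dots on higher values, medulla 15, and visual cortex 12 dots on lower values.

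The sterol enzymes had opposed regional patterns. In the caudate putamen, 17 of 32 members differed from the other regions in AL mice, where 55.9% of all genes did. Cyp46a1 had 392, 366, 390 and 356 CPM in the caudate putamen of AL mice 63, 66, 68 and 69, and 49.96, 54.6, 53.7 and 53.3 CPM in their cerebellum. In AL mice the caudate putamen was highest, followed by entorhinal cortex with 371 ± 10.8 CPM (SD, n = 3), visual cortex with 346 ± 29.5 and thalamus with 332 ± 40.7 (SD, n = 4), and these neighbours overlapped. In PBS mice the entorhinal cortex was highest, with 364 CPM. At the low end in AL mice, pons had 76.6 ± 6.02 CPM, medulla 69.1 ± 7.05 and cerebellum 52.9 ± 2.01, with a gap between olfactory bulb (142 ± 11.3) and pons and another between medulla and cerebellum. Against the other regions, the cerebellum was lower by -2.11 in AL mice (log2, SE 0.10, adjusted p = 6.37e-23) and -2.19 in PBS mice (SE 0.13, adjusted p = 7.80e-19, both edgeR).

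Cyp7b1, the oxysterol 7-alpha-hydroxylase, which acts on hydroxycholesterols and neurosteroids, peaked in the hippocampus. It had 29.2, 17.7, 37.1 and 31.5 CPM in the anterior hippocampus of the AL mice and 7.63, 7.15, 11.2 and 8.19 CPM in their pons, the lowest region. The anterior hippocampus was 1.41 (log2, SE 0.12, adjusted p = 9.13e-14) above the other regions in AL mice and 1.28 (SE 0.10, adjusted p = 1.14e-13) in PBS mice with edgeR. It overlapped with posterior hippocampus, 16.4 ± 7.05 CPM, which was the next highest.

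Cyp27a1 was high in the hindbrain, with 30.8, 39.3, 40.3 and 48.4 CPM in the medulla of the AL mice and 2.39, 4.99, 3.28 and 3.93 CPM in their visual cortex. Pons (38.5 ± 5.06 CPM) and cerebellum (33.5 ± 2.63) followed the medulla and overlapped with it, and all 4 cerebellum libraries were above those of the next region, the olfactory bulb (21.7 ± 0.869). Cyp39a1, which hydroxylates 24-hydroxycholesterol, was also highest in medulla, with 17.1 ± 2.08 CPM, and lowest in entorhinal cortex, with 1.37 ± 0.404 (SD, n = 3). The medulla differed from the other regions by 1.83 (log2, SE 0.16) for Cyp27a1 and 1.65 (SE 0.15) for Cyp39a1 in AL mice. The 4 oligodendrocyte markers summed to 17311 to 26310 CPM in medulla libraries and 1509 to 2585 CPM in visual cortex libraries, and their part in these differences was not tested.

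Cyp26b1, which breaks down retinoic acid, had 11.1, 9.95, 8.15 and 9.47 CPM in the pons of the AL mice and 14.7, 17.1 and 14.7 CPM in that of PBS mice. Cerebellum (8.95 ± 0.795 CPM), medulla (7.51 ± 4.11) and anterior hippocampus (6.99 ± 1.31) came next in AL mice, and thalamus was lowest, with 0.388, 0, 0.352 and 0 CPM. The pons was 2.61 (log2, SE 0.30) above the other regions in AL mice and 3.04 (SE 0.32) in PBS mice. In the choroid plexus libraries Cyp26b1 was uneven, from 1.98 to 15.5 CPM in AL mice. Its relative Cyp26a1 reached at most 3.49 CPM in a brain library. In AL mice it was highest in choroid plexus, with 2.46, 3.49, 1.68 and 0.833 CPM, and in PBS mice in entorhinal cortex, with 0.983, 2.49, 2.11 and 2.17 CPM. Cyp19a1, the aromatase, had at least 10 counts in 2 of the 229 brain libraries. Its highest region was the hypothalamus in both control groups, with 0.367, 0.183, 0.682 and 0 CPM in the 4 AL mice and 2.65, 0.977 and 0.155 CPM in PBS mice 72, 80 and 84.

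Vitamin D 25-hydroxylase Cyp2r1 and oestrogen hydroxylase Cyp1b1 shared the olfactory bulb as their highest region. Cyp2r1 had 4.30, 6.38, 5.49 and 4.45 CPM in the olfactory bulb of the AL mice and 0.736 ± 0.307 CPM in hypothalamus, the lowest region. Cyp1b1 had 22.6, 19.9, 17.3 and 21.3 CPM in the olfactory bulb and 2.54 ± 0.584 CPM in caudate putamen. In both genes the olfactory bulb values did not overlap those of the next region, in AL and in PBS mice. The olfactory bulb was 1.40 (log2, SE 0.17) above the other regions for Cyp2r1 and 1.81 (SE 0.17) for Cyp1b1 in AL mice.

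The fatty acid oxidases differed among themselves. Cyp4f15 had 36.0, 40.0, 30.8 and 31.0 CPM in the SVZ of the AL mice and 2.72, 2.09, 2.73 and 1.59 CPM in their medulla. Cyp4x1, whose transcript was not counted in AL liver, was highest in visual cortex, 38.0 ± 8.82 CPM, and lowest in corpus callosum, 10.5 ± 1.45 (SD, n = 3). Cyp2j12 was the other way round. It had 20.8, 16.6 and 13.7 CPM in the corpus callosum of AL mice 63, 66 and 69, and 0.532, 1.44, 0.820 and 1.13 CPM in the visual cortex of the 4 AL mice. The oligodendrocyte markers summed to at least 16105 CPM in corpus callosum libraries, and their part in the Cyp2j12 difference was not tested. Cyp2j9 was highest in hypothalamus, 71.4 ± 3.44 CPM, all 4 above the thalamus libraries, and lowest in motor cortex, 25.5 ± 3.24. Cyp2d22, a mouse 2d enzyme, was highest in cerebellum, 58.3 ± 1.07 CPM, and Cyp2s1 in pons, 20.7 ± 6.76. In PBS mice the highest region of Cyp4x1 was entorhinal cortex, 34.3 CPM, and that of Cyp2j12 caudate putamen, 14.6 CPM.

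Some members had a regional pattern at a low level. Of those named here, Cyp2a5, Cyp2c23 and Cyp2f2 were higher in liver than in brain, and Cyp4a12b and Cyp11a1 higher in brain. Cyp2a5 had 5.98, 4.68, 6.34 and 4.29 CPM in the caudate putamen of the AL mice and 4.51, 2.59, 4.44 and 6.51 CPM in that of PBS mice, and it was 5.14 (log2, SE 0.62) and 4.63 (SE 0.47) above the other regions there. These differences are from a mean of log2 levels, which regions near 0 CPM pull down. Cyp2a5 averaged 1.76 CPM over the 15 region means of AL mice. Its highest region was the olfactory bulb, with a mean of 15.4 CPM in AL mice, which rested on mouse 69, and 26.3 CPM in PBS mice. Its mean was 0 CPM in choroid plexus of AL mice and in cerebellum of PBS mice. In corpus callosum Cyp2a5 also had the largest positive difference of the members called, with 2.501, 2.51 and 6.59 CPM in AL mice. Cyp2c23, an arachidonate epoxygenase, had 1.35, 0.749, 1.52 and 0.809 CPM in the caudate putamen of the AL mice, and Cyp4a12b had 1.35, 1.72 and 1.67 CPM in the entorhinal cortex of AL mice 63, 66 and 69. Cyp11a1, which makes pregnenolone, was called higher in the posterior hippocampus and had 3.02, 3.83, 1.71 and 1.96 CPM there. Cyp2f2, called higher in the hypothalamus, was uneven there, with 4.58, 0.137, 0.170 and 0.749 CPM in the AL mice. Hepatocyte markers summed to at most 4.15 CPM in the brain libraries.

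In liver, dietary restriction was compared with free feeding in 5 DR and 4 AL mice with edgeR. None of the 65 members tested was called at an adjusted p under 0.05, where 0.22% of all genes were. At an unadjusted p under 0.05 there were 13 of the 65, where 9.09% of all genes had such a p. Of the 13, 9 were higher in DR mice, as were 530 of the 1074 genes with such a p. DESeq2 called 3 (4.62%, against 1.9% of all genes). The median log2 change was 0.11 over the members and 0.02 over all genes, and 43 of the 65 were above 0, as were 6250 of all 11815 genes. The P450 sum was 22685 ± 2160 CPM in DR mice (SD, n = 5), or 2.27% of counts, and 20383 ± 3591 in AL mice, and mice of the groups overlapped. Groups did not overlap for 4 of the 65 members (6.15%, against 4.27% of all genes), namely Cyp2a5, Cyp2c54, Cyp4a14 and Cyp2c69.

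Cyp2a5 had 937, 692, 872 and 517 CPM in AL mice 63, 66, 68 and 69 and 1501, 1858, 1451, 1698 and 1073 CPM in DR mice 61, 62, 64, 65 and 67. Every DR liver was above every AL liver. The log2 change was 1.06 (SE 0.20), with an adjusted p of 0.0758 by edgeR and 7.57e-05 by DESeq2, and over the alternatives tried the adjusted p ran from 7.57e-05 to 0.216. Cyp2c54, a member of the arachidonate and drug oxidising 2c cluster, had 19.98, 21.3, 33.3 and 51.5 CPM in AL mice and 112, 199, 134, 75.7 and 63.5 CPM in DR mice. Its groups did not overlap either, and the log2 change was 1.92 (SE 0.38), with an adjusted p of 0.0768 by edgeR and 9.85e-05 by DESeq2 (range 9.85e-05 to 0.210). The third DESeq2 call was Cyp2d22, with 200 ± 23.6 CPM in AL and 262 ± 21.7 CPM in DR mice and an adjusted p of 0.0137 by DESeq2 and 0.260 by edgeR.

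Of family 4a, whose enzymes start the omega-oxidation of fatty acids and are textbook targets of PPARalpha, 4 members were tested. Cyp4a14 had 217, 209, 46.4 and 129 CPM in AL mice and 251, 341, 317, 348 and 352 CPM in DR mice, with no overlap and a log2 change of 1.16 (SE 0.36, adjusted p = 0.282 with edgeR). Cyp4a10 had 225, 123, 112 and 118 CPM in AL mice and 161, 222, 203, 198 and 882 CPM in DR mice. Its log2 change of 1.33 (SE 0.55, adjusted p = 0.474 with edgeR) was 0.45 without DR mouse 67. Cyp4a32 had 6.52 ± 1.53 CPM in AL and 12.53 ± 6.14 CPM in DR mice, so the log2 change was 1.06, or 0.68 without mouse 67. Cyp4a31 had 2.33, 3.41, 7.15 and 5.52 CPM in AL mice and 4.99, 2.03, 4.81, 3.71 and 53.0 CPM in DR mice, so that mouse 67 alone was above the AL mice. No family 4 member passed the test.

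The bile acid enzymes did not pass the test either. Cyp7a1 had 272, 363, 386 and 284 CPM in AL mice and 449, 614, 491, 476 and 271 CPM in DR mice. Of the DR mice, 4 were above every AL mouse and mouse 67 was below all of them, and the log2 change was 0.54 (SE 0.20, adjusted p = 0.401 with edgeR). Cyp39a1 had a log2 change of 0.78 (0.42 without mouse 67), Cyp8b1 of -0.27 and Cyp27a1 of 0.06.

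Lower values in DR mice were found for 4 members with an unadjusted p under 0.05. Cyp2c69 had 1026, 756, 892 and 775 CPM in AL mice and 552, 293, 376, 468 and 688 CPM in DR mice, without overlap, and a log2 change of -0.78 (SE 0.26, adjusted p = 0.339 with edgeR). Cyp2d40 had a log2 change of -0.96, Cyp4f14 of -0.71 and Cyp2c55 of -1.58, the last at a low level, 6.71 ± 2.29 CPM in AL and 2.35 ± 1.76 in DR mice. Of the abundant drug and toxin oxidising members, Cyp2e1 had 3272 ± 1100 CPM in AL and 4645 ± 982 in DR mice (log2 change 0.55, adjusted p = 0.498 with edgeR), and Cyp3a11 564 ± 394 and 872 ± 367 CPM. Cyp1a2 was 685 ± 121 and 648 ± 177 CPM, Cyp2b10 25.9 ± 6.99 and 19.2 ± 6.87, and Cyp26a1 47.5 ± 11.1 and 61.3 ± 27.7 CPM. For Cyp3a11, Cyp1a2, Cyp2b10 and Cyp26a1 the SD of at least 1 group was larger than the difference of the means.

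DR mouse 67 departed from the other restricted mice in several members, as it did over all genes. It held the highest or lowest liver value for 41.5% of members tested and 41.0% of all genes. Mouse 62 did so for 43.1% and 33.0%. Cyp17a1, the 17-alpha-hydroxylase of steroid synthesis, had 156, 139, 217 and 154 CPM in AL mice and 80.1, 25.5, 41.2, 66.0 and 390 CPM in DR mice. The other 4 DR mice were below every AL mouse and mouse 67 was above all of them. The log2 change was -0.31 (SE 0.70, adjusted p = 0.965 with edgeR) and became -1.63 (adjusted p = 0.0873) without mouse 67. Cyp2b9 had 14.8 CPM in mouse 67 and 211 to 472 CPM in the other 8 mice, Cyp2b13 had 3.99 CPM in mouse 67 and at least 30.4 in the others, and Cyp3a44 had 1458 CPM in it and at most 783 in the others. Cyp2b9 and Cyp2b13 were chosen after their values were seen. Without mouse 67, no member was called.

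**Figure D3:**
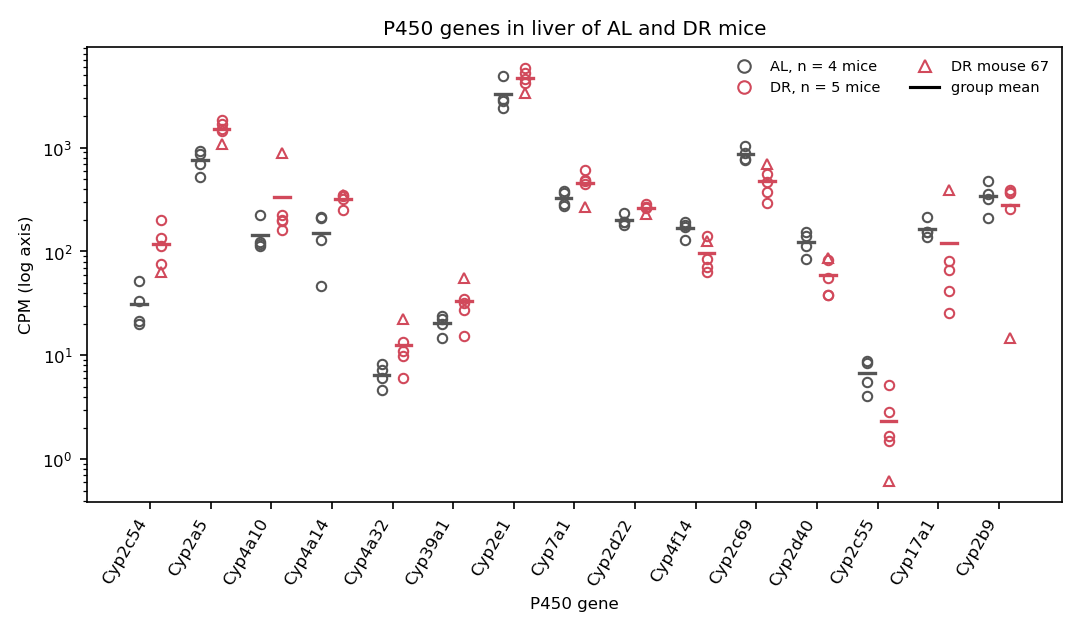
CPM (log axis) of 15 members in liver of 4 AL mice (grey) and 5 DR mice (red), with DR mouse 67 as triangles and group means as bars. The DR circles of Cyp2a5, Cyp2c54 and Cyp4a14 lie above the AL circles, and mouse 67 stands apart in Cyp4a10 (882 CPM), Cyp17a1 (390 CPM) and Cyp2b9 (14.8 CPM).

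The genes around the P450 enzymes were counted in the same test. Of 12 genes of haem synthesis and breakdown, 1 was called higher and 0 lower: Alas1, which makes the first and limiting step of haem synthesis, had 261 ± 79.2 CPM in AL and 614 ± 80.6 CPM in DR mice, so the log2 change was 1.30 (SE 0.20, adjusted p = 0.0308 with edgeR). The list's median log2 change was 0.04. Of 10 electron-transfer partners, 22 tested regulators, 9 other bile acid enzymes and 22 conjugating enzymes, 0 were called. Among them Por, the electron donor of microsomal P450 enzymes, had 356 ± 74.6 and 732 ± 305 CPM (log2 change 1.13, adjusted p = 0.230), and Nr1i2, the xenobiotic receptor PXR, had 36.8 ± 4.90 and 63.6 ± 13.2 CPM (0.86, adjusted p = 0.0892). Hsd3b7, which acts after Cyp7a1 in bile acid synthesis, had 404 ± 67.9 and 168 ± 53.4 CPM (-1.20, adjusted p = 0.0758, all edgeR). At an unadjusted p under 0.05 there were 2 of 10 partners, 2 of 22 regulators, 1 of 9 bile acid enzymes and 4 of 22 conjugating enzymes, where 9.09% of all genes had such a p. As levels, 22 of 22 conjugating enzymes, 9 of 10 bile acid enzymes, 9 of 10 partners, 11 of 12 haem genes and 21 of 24 regulators were higher in liver than in brain, against 37.1% of all genes. The limit of the filter given for the members holds for these lists too.

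Across brain regions, diet was tested on 1 value per mouse, the mean log2 CPM over its regions after allowing for missing regions, with limma. None of the 33 members tested was called, where 0.922% of all genes were. At an unadjusted p under 0.05 there were 3 (9.09%, against 16.1% of all genes), and groups did not overlap for 1 member, Cyp2r1 (3.03%, against 8.3%). Over the regions that each mouse had, Cyp2r1 averaged 1.98, 2.27, 2.59 and 2.02 CPM in AL mice 63, 66, 68 and 69 and 1.52, 1.33, 1.58, 1.75 and 1.71 CPM in aDR mice 61, 62, 64, 65 and 67. All 5 aDR mice were below all 4 AL mice, and the log2 change was -0.44 (SE 0.10, adjusted p = 0.0933 with limma, range 4.02e-06 to 0.226 over the alternatives). The low end came from a voom fit with no block for the mouse, which takes regions of 1 mouse as independent. With the mouse as a block, voom gave an adjusted p of 1.88e-04. That fit takes 1 correlation within mice for all genes. It called 9.44% of all genes, against 0.922% with 1 value per mouse. Fitted by region, the Cyp2r1 change was below 0 in 12 of the 12 regions tested, with 4 at an unadjusted p under 0.05, and ranged from -1.03 in entorhinal cortex to -0.03 in posterior hippocampus. In liver its change was -0.36 (SE 0.24, adjusted p = 0.749 with edgeR), and the liver effect minus the brain effect was 0.08 (SE 0.28, adjusted p = 0.985 with limma).

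Cyp2d22 averaged 38.1, 36.4, 37.2 and 37.1 CPM in AL mice and 42.0, 40.3, 39.7, 38.5 and 37.9 CPM in aDR mice. Its log2 change was 0.11 (SE 0.04, adjusted p = 0.230 with limma) and it was above 0 in 14 of 15 regions. Cyp3a13, a low-level family 3 enzyme in brain, had a log2 change of 0.29 (SE 0.11, adjusted p = 0.256) and Cyp4x1 of -0.13 (SE 0.06, adjusted p = 0.349). Libraries fitted together with voom and the mouse as a replicate block gave 3 calls, Cyp2r1, Cyp2d22 and Cyp3a13 (9.09%, against 9.44% of all genes). Cyp46a1 had 200 to 233 CPM in AL mice and 217 to 231 CPM in aDR mice. Of the P450 partners, Cyb5r3, the reductase of cytochrome b5, was the 1 of 10 called, with a log2 change of 0.21 (SE 0.04, adjusted p = 0.0382 with limma), and of the other 4 lists 0 of 53 genes tested were called and 10 had an unadjusted p under 0.05, where 16.1% of all genes did.

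The share of all genes called for diet was 0.0146% in caudate putamen, 0.0524% in cerebellum, 0.00707% in choroid plexus, 0.0215% in corpus callosum, 0.00714% in medulla, 0.251% in motor cortex, 0.22% in olfactory bulb, 0.0212% in SVZ, 0.202% in visual cortex and 0.0% in the other regions. Region by region, 363 member tests of diet gave 0 calls with edgeR (0.0525% over all genes) and 29 at an unadjusted p under 0.05 (7.99%, against 6.24%), and DESeq2 gave 1. That one was Cyp39a1 in cerebellum, where DESeq2 called 1 of 25 members and 1.26% of all genes. It had 8.20, 8.94, 11.3 and 7.39 CPM in AL mice and 4.74, 5.14, 2.99, 5.46 and 4.80 CPM in aDR mice. All 5 aDR mice were below all 4 AL mice there, and the log2 change was -0.93 (SE 0.19, adjusted p = 0.0942 by edgeR and 0.00582 by DESeq2). It was chosen after its values were seen. The diet effect was not shown to differ between regions for any of 33 members with edgeR, where 0.0128% of all genes were called. Nor was it shown to differ between liver and brain for any of 27 with limma, where 0.0881% of all genes were called.

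In the plasma experiment, none of the 36 members tested across brain regions was called with limma, where 0.0% of all genes were. At an unadjusted p under 0.05 there were 5 members (13.9%, against 8.09% of all genes), and groups did not overlap for 4, Cyp2e1, Cyp2j6, Cyp2u1 and Cyp4f17 (11.1%, against 10.1%). Cyp2e1 averaged 3.56, 2.78, 2.03 and 2.43 CPM in PBS mice 72, 76, 80 and 84 and 1.74, 1.49 and 1.43 CPM in YMP mice 73, 77 and 81. All 3 YMP mice were below all 4 PBS mice, and the log2 change was -0.92 (SE 0.17, adjusted p = 0.335 with limma, range 6.15e-06 to 0.690 over the alternatives). The low end came from voom with no replicate block, which takes regions of 1 mouse as independent. With the mouse as a block, voom gave an adjusted p of 0.0092. That fit takes 1 correlation within mice for all genes. It called 3.08% of all genes, against 0.0% with 1 value per mouse. The Cyp2e1 change was below 0 in 11 of the 11 regions tested, from -1.55 in hypothalamus to -0.19 in olfactory bulb, with 5 at an unadjusted p under 0.05.

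Cyp2j6 averaged 33.2, 31.1, 29.8 and 29.8 CPM in PBS mice and 27.7, 28.4 and 26.6 CPM in YMP mice, so the log2 change was -0.16 (SE 0.05, adjusted p = 0.508 with limma). Cyp4f17, of family 4, had a log2 change of -0.27 (SE 0.08, adjusted p = 0.490) and Cyp2u1 of -0.15 (SE 0.06, adjusted p = 0.556). Cyp2f2 had -0.48 (SE 0.17, adjusted p = 0.535), a value that turned to 0.80 when libraries were fitted together with voom and a replicate block. That fit called 4 members (11.1%, against 3.08% of all genes). Of them, Cyp2e1 (log2 change -0.77) and Cyp2u1 (-0.16) were lower in YMP mice, and Cyp2g1 (1.49) and Cyp4f15 (0.23) were higher. Of the cell type lists, 2 did not overlap between PBS and YMP mice. The 5 astrocyte markers summed to 1717 to 1829 CPM in PBS mice and 1580 to 1712 in YMP mice, and the 8 choroid plexus markers to 1248 to 3230 and 27.6 to 1071 CPM. Their part in the P450 differences was not tested. Of the 63 genes tested of the 5 lists, 0 were called with limma and 7 had an unadjusted p under 0.05, where 8.09% of all genes did. The plasma effect was not shown to differ between regions for any of 36 members with edgeR, where 0.824% of all genes were called. The 363 tests region by region gave 0 calls with edgeR and with DESeq2 (0.0127% over all genes with edgeR) and 36 at an unadjusted p under 0.05 (9.92%, against 6.11%). By region, 0.00738% of all genes were called in cerebellum, 0.184% in corpus callosum and 0.0% in the others.

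**Figure D4:**
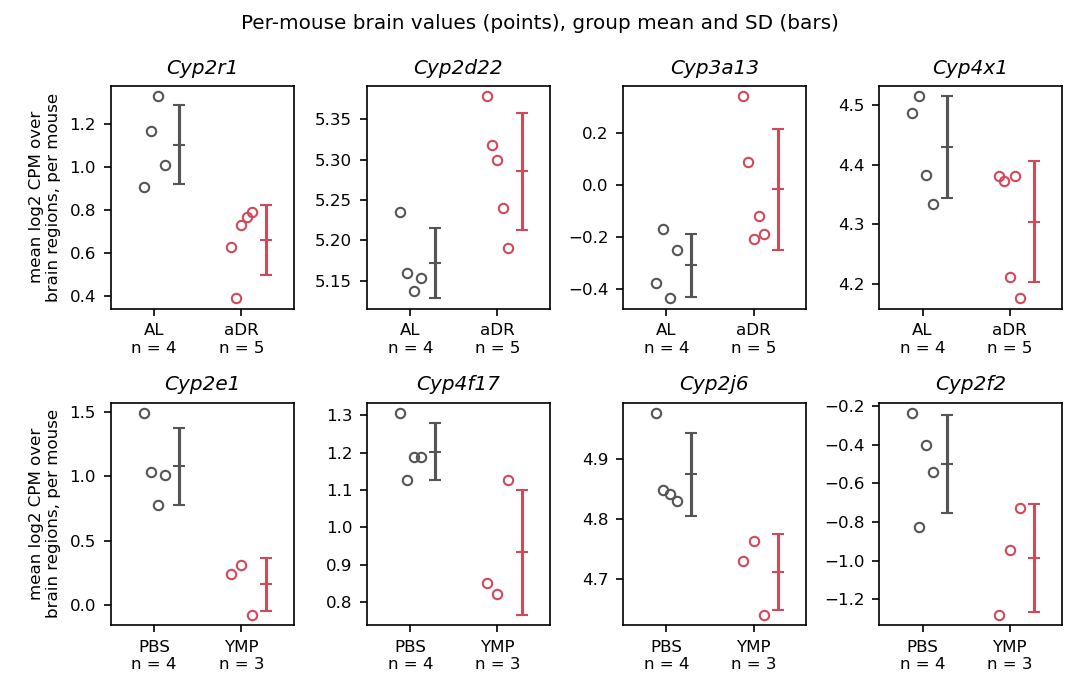
Mean log2 CPM over brain regions for each mouse (points) with the group mean and SD (bars), for 4 members in the diet experiment (top) and 4 in the plasma experiment (bottom). Each panel has its own y axis. The 5 aDR mice lie below the 4 AL mice for Cyp2r1, and the 3 YMP mice below the 4 PBS mice for Cyp2e1, Cyp4f17 and Cyp2j6.

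In the olfactory bulb, some members differed widely between mice of 1 group. Cyp2a5 had 35.4, 33.6, 29.0 and 7.40 CPM in PBS mice 72, 76, 80 and 84 and 0, 9.74 and 220 CPM in YMP mice 73, 77 and 81. Cyp2f2 had 22.5, 17.9, 15.4 and 6.38 CPM in the PBS mice and 1.65, 5.29 and 138 CPM in the YMP mice. Cyp2g1, an enzyme known from the olfactory mucosa, had 9.89, 13.5, 16.4 and 1.15 CPM and 0, 6.40 and 93.7 CPM. YMP mouse 81 was the highest of the plasma experiment in each of these and the other 2 YMP mice were below most PBS mice. Cyp1a2 had 39.1 CPM in mouse 81 and at most 5.82 CPM in the other 6. At a lower level, Cyp3a13 had 5.58 CPM in mouse 81 and at most 1.20 in the others, and Cyp1a1, an enzyme of polycyclic hydrocarbons, had 2.70 CPM and at most 1.20.

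The diet experiment had such a mouse too. Cyp2a5 had 0.113, 0, 3.51 and 58.0 CPM in AL mice 63, 66, 68 and 69, and Cyp2g1 had 0.226, 0, 0.900 and 42.5 CPM, so mouse 69 was high in both. Among aDR mice, mouse 61 was highest, with 18.2 CPM of Cyp2a5. Cyp2e1 and Cyp1b1 did not vary in this way: over all 16 olfactory bulb libraries Cyp2e1 had 5.29 to 13.8 CPM and Cyp1b1 16.2 to 25.7 CPM. The 4 markers of olfactory epithelium (Omp, Cnga2, Stoml3 and Gng13) summed to between 102 and 606 CPM, with the highest sums in YMP mouse 81 (606) and AL mouse 69 (591). The red blood cell markers were also highest in YMP mouse 81, at 239 CPM. The part of these markers in the P450 values was not tested.

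The plasma comparison of the olfactory bulb rested on these libraries. Of 30 members tested, 0 were called with edgeR (0.0% of all genes), 4 had an unadjusted p under 0.05 (13.3%, against 8.84%) and 0 had groups that did not overlap (7.53% of all genes). The log2 changes were 2.11 for Cyp2a5, 2.28 for Cyp2f2, 2.24 for Cyp2g1 and 2.27 for Cyp1a2, with adjusted p of 0.425, 0.414, 0.414 and 0.397 by edgeR. Without YMP mouse 81 they were -1.65, -1.65, -1.01 and -1.46. With no filter on low counts the 4 were called (5.88% of members, against 0.298% of all genes), and without YMP mouse 77 so were 6 members (18.8%, against 1.36%), the 4 with Cyp3a13 (log2 change 2.98) and Cyp1a1 (2.71). Cyp3a13 and Cyp1a1 were chosen here after their values were seen. The regional calls of Cyp2a5 and Cyp2f2 in the olfactory bulb above rest on the same uneven AL and PBS libraries.

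**Figure D5:**
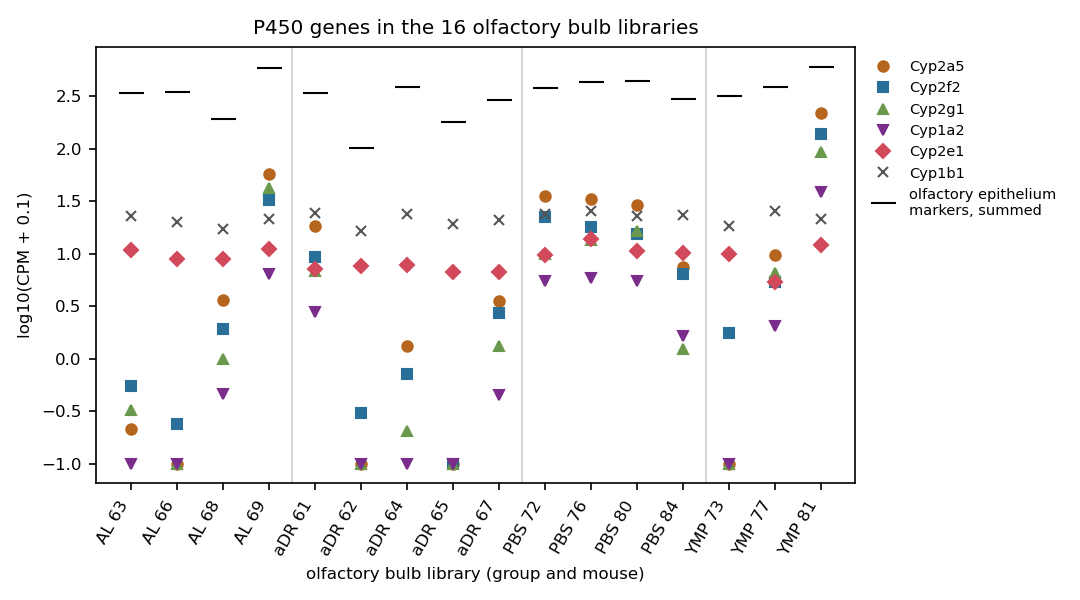
Log10 of CPM plus 0.1 of 6 members, and of the summed olfactory epithelium markers (bars), in each of the 16 olfactory bulb libraries, ordered by group and mouse. Cyp2a5, Cyp2f2, Cyp2g1 and Cyp1a2 peak together in AL mouse 69 and YMP mouse 81, while Cyp2e1 (5.29 to 13.8 CPM) and Cyp1b1 (16.2 to 25.7 CPM) stay level.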

How the data were processed

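RNA from liver and 15 brain regions was sequenced after, per the labels' protocols, RNeasy extraction, Smart-Seq2 cDNA synthesis and Nextera XT tagmentation, without strand. The authors deposited 1 table for the series, with whole-number read counts for each gene and library. Per the submitters' processing notes, Trim Galore 0.3.7, STAR 2.5.3a, DESeq2 and GRCm38 were used, and the counting program and annotation are not given in the sources used here. Libraries were assigned to tissue, treatment and mouse from the labels. The members, gene lists and tests were chosen with earlier results of these data known. No row lacked a gene name and 0 columns were unused.

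Each tissue or region was tested on counts in edgeR 4.0.16 under R 4.3.3 (glmQLFit and glmQLFTest), after filterByExpr (minimum count 10, minimum total 15) and TMM. Across brain regions, and for liver against brain, log2 CPM (prior count 2), computed here from the deposited counts, gave 1 value per mouse (the mouse term of a fit on region and mouse) for limma 3.58.1. P-values were adjusted by Benjamini-Hochberg over all genes tested and called under 0.05. Printed CPM are counts over the plain library total, and CPM per kb divides them by the exon union of GENCODE M21 (all 100 members had 1 model). A group with at most 3 counts in each library was at the floor. The floor covers counting error only, since reads carried no molecular identifiers. The SD printed are over mice, and the SE come from the edgeR or limma fits. Alternatives were DESeq2 1.42.0, other scalings, filters and prior counts, voom fits, and leaving out each mouse. The scripts were tested on simulated data. Nothing in the labels names a batch.

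The mouse number pairs libraries of 1 animal (its liver and brain regions) and never libraries of different treatments. Deviations from group means correlated by 0.040 between libraries of the same mouse and -0.0049 between other mice in the diet experiment, and by 0.072 and -0.012 in the plasma experiment.

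Named with values were the 15 members with the highest mean CPM in AL liver, the 12 highest in AL brain, up to 6 in each direction by size at an unadjusted p under 0.05 for diet in liver, the leading member of each region, the 4 of smallest p for diet and for plasma across brain, and fixed lists of 8 brain and 11 liver members. Other members named were chosen after their values were seen.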

Additional observations from a re-analysis of the deposited data

Results flagged for a closer look

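Of 32 groups of 4 to 10 mice examined for a mouse far from the rest, 3 were flagged, where chance alone flags about 1 in 20 groups, or 1.6 here. Cyp4a10 in liver was flagged in both diet groups. In AL mice, mouse 63 had 225 CPM and the next highest 123 CPM. In DR mice, mouse 67 had 882 CPM and the next highest 222 CPM. Cyp2j6, an arachidonate-oxidising enzyme, was flagged in PBS brain: mouse 72 had a mean log2 CPM of 4.98 over its regions and the next highest 4.85.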

How the results depend on the processing

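Of 134 repeats of the main counts under alternatives, 126 stayed within 1.5 times the main count and 8 did not. DESeq2 called 3 members for diet in liver, against 0 with edgeR, and 1 member for diet over the brain regions fitted alone, against 0. For plasma over the regions fitted alone, 4 were called with no filter on low counts, and leaving out single mice gave 0 to 6, the 6 without mouse 77. Across brain regions, voom with the mouse as a replicate block called 3 members for diet and 4 for plasma, and voom with no replicate block called 6 and 6, against 0 with limma. With no replicate block 18.2% and 16.7% of members were called, where 17.7% and 16.7% of all genes were. The replicate block changed no other count by over 1.5 times. The cause was not tested.

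Among 913 repeats of single named values, 10 changed sign. Cyp1a2 for diet in liver, -0.03 in the main test, turned to 0.04 without mouse 63, 0.01 without mouse 66 and 0.10 without mouse 67. It kept its sign at -0.13 without mouse 69. Cyp2f2 for plasma across regions was 0.80 with voom and the replicate block and 0.29 with no replicate block. In the olfactory bulb without YMP mouse 81, Cyp1a2 was -1.46, Cyp2f2 -1.65, Cyp2g1 -1.01 and Cyp2a5 -1.65, while without YMP mouse 77 they kept their sign at 2.86, 2.94, 2.82 and 2.75. Cyp2e1 there, -0.19 in the main test, turned to 0.0896 without mouse 77 and kept its sign at -0.88 without mouse 81. Another 21 passed the threshold that they missed in the main test, and 6 no longer passed it, all 6 for Cyp20a1 in liver against brain. The numbers of mice limit what could be detected, as do low counts: Cyp19a1 had at least 10 in 2 of 229 brain libraries.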
